A study of Mus musculus with 6 samples.

Results

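Pax5, Ebf1, Cebpa and Spi1 encode transcription factors that direct B cell or myeloid development, and Ezh2 binding was examined at these 4 genes in helper T cells. Each gene was taken as a window of mm9, the mouse genome build of the deposited reads. The Pax5 window was 190 kb on chromosome 4 (44540001 to 44730000), that of Ebf1 400 kb on chromosome 11 (44425001 to 44825000), that of Cebpa 20 kb on chromosome 7 (35895001 to 35915000) and that of Spi1 45 kb on chromosome 2 (90915001 to 90960000). The 4 windows held 655 of the 2638957 bins of 1 kb on chromosomes 1 to 19 and X. The windows carry the gene names as given. No mm9 annotation was used, so exons, introns and start sites were not placed on the reads.

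Ezh2 is the methyltransferase subunit of Polycomb repressive complex 2, which places methyl groups on lysine 27 of histone H3. The complex is known for covering developmental regulator genes that a cell type keeps silent, often as wide domains around CpG-rich promoters. Pax5 and Ebf1 are the factors that commit lymphoid progenitors to the B cell lineage and maintain it. Cebpa encodes C/EBP alpha, which drives granulocyte and monocyte development and is also used in liver and fat. Spi1 encodes PU.1, an ETS family factor of myeloid and B cells that is present in early T cell progenitors and is shut down as they commit to the T lineage.

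The cells came from the spleen of C57BL/6 mice. Naive CD4 T cells (CD44 low, CD62L high) were stimulated for 2 days through the T cell receptor and CD28 with IL-2 at 15 ng/ml, then kept for 3 days without that stimulation. Th1 cultures held IL-12 at 10 ng/ml and an antibody to IL-4, and Th2 cultures held IL-4 at 100 ng/ml and an antibody to IFN-γ. From each cell type there was 1 Ezh2 pull-down (a polyclonal antibody from Diagenode), 1 pull-down with a control rabbit IgG and 1 input. The number of mice, any pooling and the purity of the cultured cells were not stated in the sources used here. Genomic DNA was sequenced, so cell type markers could not be read as expression.

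The Ezh2 libraries held 10809666 distinct positions in Th1 and 14963599 in Th2 on the chromosomes used, and the inputs 15578675 and 12862628. A position is 1 deposited interval, counted once however many reads shared it. For the control antibody there were 9326717 positions in Th1, and in Th2 5053626 on the 8 chromosomes used, which include chromosomes 4 and 7 but not 2 and 11. With 1 library in each group there was no replicate check. All intervals and tests below cover counting error only and compare these libraries, not the conditions.

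The promoter sequences of Pax5, Ebf1 and Cebpa are shown because CpG-rich DNA is the usual setting of Polycomb domains. They are the 250 bases before a RefSeq start site in GRCm38.p6, a later build whose coordinates do not apply to the reads. Each is written in the direction of transcription, with every CG in capitals. The Pax5 sequence lies at chr4:44710695-44710944 on the minus strand. The Ebf1 sequences, for a pair of start sites, lie at chr11:44617850-44618099 and chr11:44619978-44620227 on the plus strand, and that of Cebpa at chr7:35119043-35119292 on the plus strand.
Pax5: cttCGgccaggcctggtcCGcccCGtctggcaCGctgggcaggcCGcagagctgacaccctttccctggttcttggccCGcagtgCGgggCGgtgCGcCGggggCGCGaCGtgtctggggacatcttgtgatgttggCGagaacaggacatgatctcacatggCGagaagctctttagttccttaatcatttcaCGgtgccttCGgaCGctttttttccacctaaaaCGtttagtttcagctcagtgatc
Ebf1, lower start site: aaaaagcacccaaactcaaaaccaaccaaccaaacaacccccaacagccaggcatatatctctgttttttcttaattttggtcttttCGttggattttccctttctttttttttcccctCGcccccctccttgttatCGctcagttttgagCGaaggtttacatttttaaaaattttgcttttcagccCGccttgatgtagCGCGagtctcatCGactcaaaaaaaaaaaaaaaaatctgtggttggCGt
Ebf1, higher start site: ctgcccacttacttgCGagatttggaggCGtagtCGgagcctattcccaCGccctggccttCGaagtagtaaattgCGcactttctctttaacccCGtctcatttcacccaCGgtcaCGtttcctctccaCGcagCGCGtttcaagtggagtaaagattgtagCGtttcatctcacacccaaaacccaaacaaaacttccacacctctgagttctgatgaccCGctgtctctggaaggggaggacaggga
Cebpa: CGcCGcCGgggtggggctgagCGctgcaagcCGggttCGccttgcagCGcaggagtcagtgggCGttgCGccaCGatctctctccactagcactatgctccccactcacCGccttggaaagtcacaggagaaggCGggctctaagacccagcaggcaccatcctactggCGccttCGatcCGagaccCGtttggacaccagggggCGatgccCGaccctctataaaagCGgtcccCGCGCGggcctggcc

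CG, which reads the same on both strands, occurred 19 times in the Pax5 sequence, 9 and 14 times in the Ebf1 sequences and 22 times in that of Cebpa. Over all 32851 promoter sequences of this length the median was 6. At least 19 were present in 19.7% of them, at least 9 in 40.3%, at least 14 in 29.4% and at least 22 in 14.8%. The GC content was 58.8% for Pax5, 40% and 52.0% for Ebf1 and 66.4% for Cebpa. By symbol 3 of the 4 genes matched, and Spi1 did not.

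The first comparison was Ezh2 against input over each whole window. Ezh2 was highest over input at Cebpa, next at Pax5, and lay closer to input at Ebf1 and Spi1. The Cebpa window held 341 Ezh2 and 157 input positions in Th1, which was 31.5 against 10.1 per 1000000 positions of the library. In Th2 it held 536 and 120, or 35.8 against 9.33 on the same scale. The fold of Ezh2 over input at Cebpa was 3.13 (95% exact Clopper-Pearson interval 2.58 to 3.81) for Th1 and 3.84 (3.14 to 4.72) for Th2. At Pax5, 2223 Ezh2 positions stood against 1496 input positions in Th1, and 3460 against 1124 in Th2. The folds there were 2.14 (2.00 to 2.29) and 2.65 (2.47 to 2.83).

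The Ebf1 window, the longest, held 2496 Ezh2 and 2969 input positions in Th1 and 3614 and 2345 in Th2. After scaling by the library totals the folds were 1.21 (95% interval 1.15 to 1.28) and 1.32 (1.26 to 1.40). At Spi1 the counts were 406 and 382 in Th1 and 476 and 322 in Th2, with folds of 1.53 (1.33 to 1.77) and 1.27 (1.10 to 1.47). Spi1 was the only one of the 4 genes with the higher fold in Th1. The control antibody had a fold below 1 in every window where it could be read: in Th1 0.777 at Cebpa, 0.783 at Pax5, 0.835 at Spi1 and 0.908 at Ebf1, and in Th2 0.874 at Cebpa and 0.909 at Pax5. By the exact test described next it passed as lower than input at Pax5 (adjusted p = 6.8e-06) and Ebf1 (adjusted p = 0.0068) in Th1 and in no other of these windows.

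**Figure D1:**
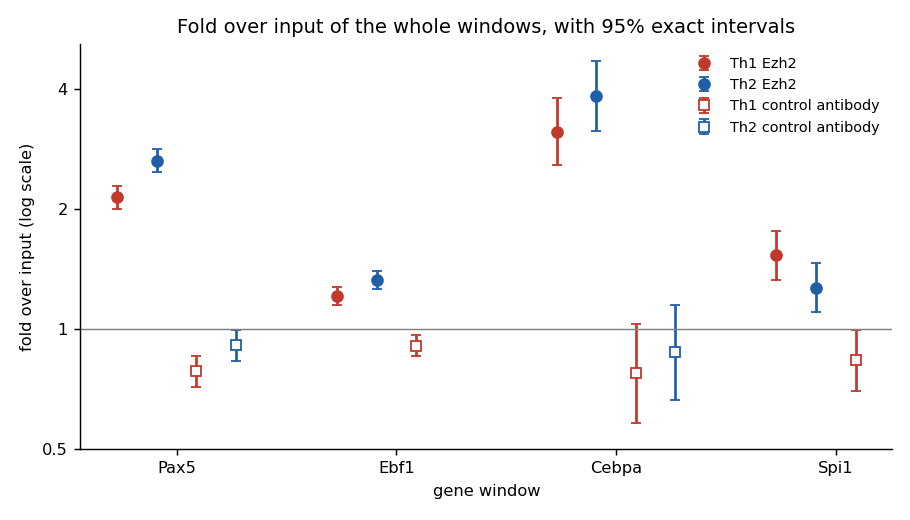
Fold over input (log scale) of the 4 whole windows, with Ezh2 as filled circles, control antibody as open squares, Th1 in red, Th2 in blue, and bars for the 95% exact intervals of counting error. All 8 Ezh2 values lie above 1 and all control antibody values below it; the Th2 control antibody is shown for Pax5 and Cebpa.

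Every window of the same length along chromosomes 1 to 19 and X was put to a two-sided exact binomial test of Ezh2 against input, with Benjamini-Hochberg adjustment over all of them. All 4 gene windows were higher than input at an adjusted p below 0.05 in both cell types. That call was common: in Th1 it was made for 22.4% of all windows of 190 kb (the length of Pax5), 26.5% of 400 kb (Ebf1), 8.43% of 20 kb (Cebpa) and 13.7% of 45 kb (Spi1). In Th2 the shares were 21.7%, 25.5%, 8.1% and 13%. The call alone therefore does not set these genes apart. The control antibody was called higher in none of the windows. Among all windows it was called higher in Th1 for 12.1% at the length of Pax5, 21.8% for Ebf1, 0.144% for Cebpa and 1.12% for Spi1, and in Th2 for 7.03% at the length of Pax5 and 0.0197% for Cebpa.

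Cebpa and Pax5 lay at the upper end of all windows, while Ebf1 and Spi1 lay further in. Only 0.471% of windows of 20 kb had a fold as high as Cebpa in Th1 and 0.451% in Th2. For Pax5, 0.708% of 13426 windows of 190 kb reached its fold in Th1 and 0.521% of 13432 in Th2. For Ebf1 the shares were 13.5% and 7.96%, and for Spi1 4.41% in Th1 and 10.3% in Th2. The median fold of all windows was between 0.875 and 0.900 over these lengths and cell types. By an exact test with adjustment over all windows, the weakest of the 8 gene results was Spi1 in Th2, with an adjusted p of 0.00416.

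**Figure D2:**
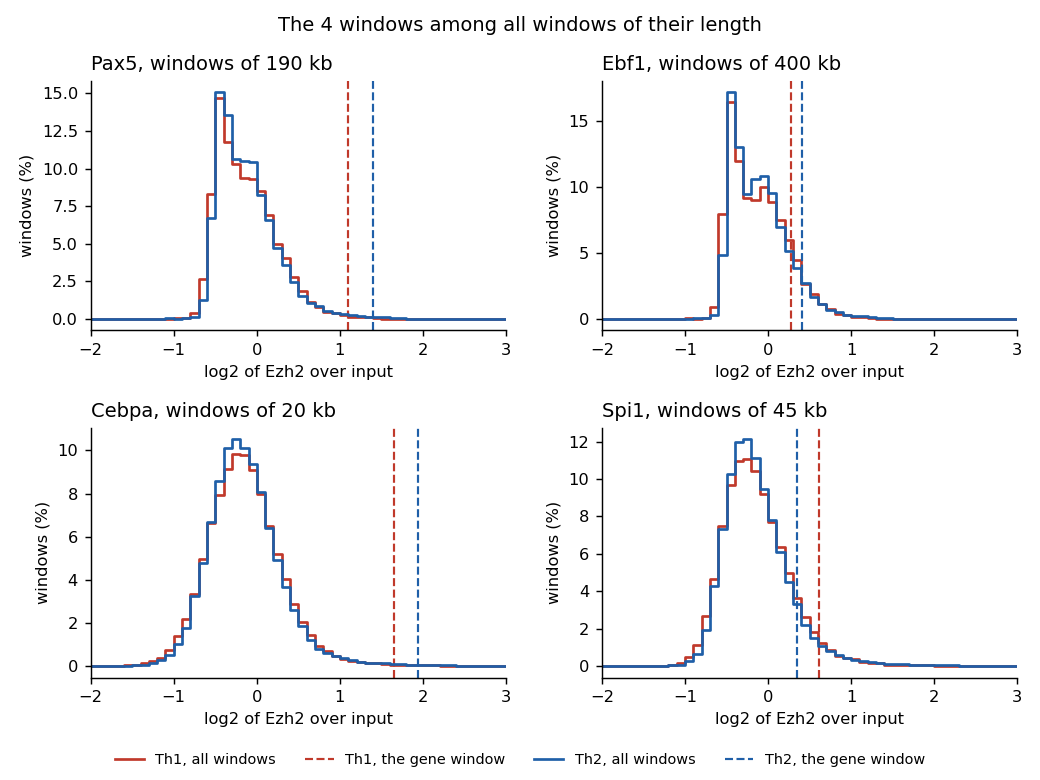
Share of all windows (%) by the log2 of Ezh2 over input, for windows as long as that of each gene; solid lines are all windows in Th1 (red) and Th2 (blue), and dashed lines the gene's own window. The dashed lines for Pax5 and Cebpa stand in the far right tail, and those for Ebf1 and Spi1 on its slope.

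The order of the genes was set against counting error by the ratio of their folds within a cell type. In Th1, Cebpa exceeded Pax5 1.46 times (95% exact conditional interval 1.19 to 1.80), Pax5 exceeded Spi1 1.40 times (1.19 to 1.64), and Spi1 exceeded Ebf1 1.26 times (1.09 to 1.47). In Th2, Cebpa exceeded Pax5 1.45 times (1.17 to 1.80) and Pax5 exceeded Ebf1 2.00 times (1.83 to 2.18). Ebf1 and Spi1 did not differ beyond counting error in Th2, at a ratio of 1.04 (0.894 to 1.22). These values compare windows of different length, and a long window averages a domain with more of its surroundings.

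The next question was where in each window Ezh2 lay. Each 1 kb bin with at least 10 positions was tested by a one-sided exact binomial test against input, and called at an adjusted p below 0.05 over the genome with at least 2-fold. The 4 windows had 34 called of 554 tested bins in Th1 (6.14%) and 41 of 570 in Th2 (7.19%). Over the whole genome 0.992% of tested bins were called in Th1 and 1.21% in Th2. The control antibody gave 0 called of 455 tested bins in Th1 and, at Pax5 and Cebpa, 0 of 131 in Th2, where it gave 0.00151% and 0% over all tested bins.

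The called bins were divided unevenly among the genes. In Th1, Pax5 had 21 of 168 tested bins called, Ebf1 7 of 325, Cebpa 5 of 20 and Spi1 1 of 41. In Th2 the numbers were 24 of 169, 10 of 337, 7 of 20 and 0 of 44. As a share of tested bins, Cebpa was highest at 25.0% in Th1 and 35.0% in Th2, and Pax5 next at 12.5% and 14.2%. Th1 and Th2 shared 28 called bins, equal to 82.4% of those called in Th1 and 68.3% of those called in Th2. All 5 bins called at Cebpa in Th1 were also called in Th2. The share of called bins that both cell types had in common over the whole genome is not given here. This overlap is therefore not read as particular to these genes.

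**Figure D3:**
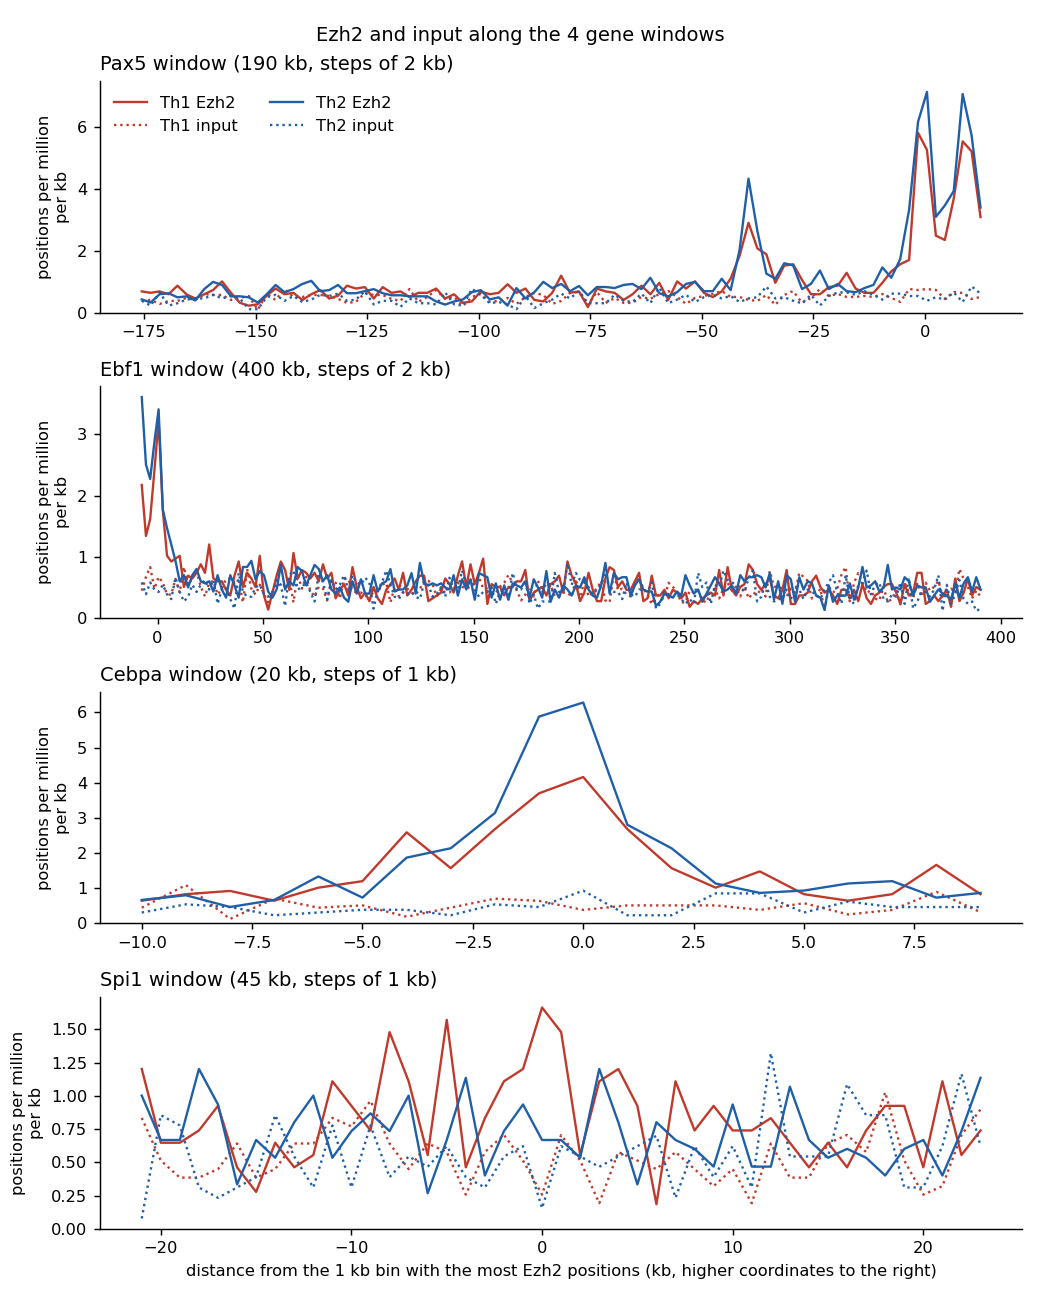
Distinct positions per kb, scaled to 1000000 positions of the library, along each window against the distance (kb) from the 1 kb bin with the most Ezh2 positions; solid lines are Ezh2, dotted lines input, Th1 in red and Th2 in blue. Pax5, Ebf1 and Cebpa each show Ezh2 peaks shared by both cell types. The Spi1 window, 1.53-fold over input in Th1 and 1.27-fold in Th2, has no region of 3 kb or more and is drawn on a much smaller vertical scale.

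At Pax5, Ezh2 lay at the high-coordinate end of the window. RefSeq places Pax5 on the minus strand, so this is the end toward which the gene starts. A region of 18 kb was called there in each cell type, from 44714001 to 44732000 in Th1 and from 44712001 to 44730000 in Th2. When both Ezh2 libraries were tested together against both inputs (1.28% of bins called genome-wide), the region grew to 30 kb, from 44707001 to 44737000, and ran 7 kb past the window. In RefSeq's gene order the next protein-coding gene on that side is Zcchc7. This 30 kb region held 936 Ezh2 and 241 input positions in Th1 and 1538 and 203 in Th2, with folds of 5.60 (95% interval 4.85 to 6.48) and 6.51 (5.62 to 7.58). In the same 30 kb the control antibody was 0.852-fold over input in Th1 and 0.762-fold in Th2.

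This Pax5 domain had 2 summits. The bin with the most Ezh2 positions in both cell types was 44716001 to 44717000. It held 77 Ezh2, 5 input and 2 control positions in Th1, and 149, 2 and 5 in Th2. A further summit lay 9 to 10 kb higher, with 67 positions in Th1 and 109 in Th2 in the bin from 44725001, and 69 and 97 in the next bin. Between the summits the bin from 44720001 fell to 23 positions in Th1 and 53 in Th2. The input of the same bins lay between 2 and 12 positions, so both summits stood well above it. By its top bin the summit at lower coordinates held more positions, 149 against 109 in Th2 and 77 against 69 in Th1. Over 5 kb the order in Th1 was the other way. There the stretch from 44723001 held 275 Ezh2 positions and that from 44713001 held 260. Pax5 is known to be transcribed from a pair of alternative promoters, which were not placed here.

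A second Pax5 domain lay at lower coordinates in the window. On both libraries together it spanned 16 kb from 44674001 to 44690000, with 300 Ezh2 and 117 input positions in Th1 and 458 and 99 in Th2. The folds were 3.70 (95% interval 2.97 to 4.62) and 3.98 (3.19 to 4.99). Its strongest part was called at 7 kb in Th1 and at 5 kb in Th2, and the bin from 44677001 held 31 and 72 Ezh2 positions. Both Pax5 domains together filled 39 of the 190 kb, yet held 51.2% of the Ezh2 positions of the window in Th1 and 54.0% in Th2, against 21.9% and 23.6% of the inputs. Outside them the Ezh2 fold was 1.34 (1.23 to 1.45) for Th1 and 1.59 (1.47 to 1.73) for Th2. The domains were chosen for their enrichment in these libraries, so these folds are descriptions.

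At Ebf1, every called bin but 1 lay within the first 16 kb of the window. The exception, from 44498001, was called in Th1 with 15 Ezh2 and 2 input positions, where Th2 had 7 and 11. The Th1 control antibody had 5 positions in that bin, 4.18-fold over the same input (95% interval 0.684 to 43.9). Ebf1 is on the plus strand in RefSeq, so here too Ezh2 lay at the end toward which the gene starts. Called in Th2, the region was 10 kb, from 44425001 to 44435000. In Th1 the same stretch broke into regions of 2 kb and 3 kb, with 1 more bin from 44436001. Both libraries together gave 1 region of 17 kb, from 44424001 to 44441000, which ran 1 kb past the window. It held 328 Ezh2 and 145 input positions in Th1 and 593 and 100 in Th2. The folds were 3.26 (95% interval 2.67 to 3.99) and 5.10 (4.12 to 6.37), and that of the Th1 control antibody was 0.887.

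The bin with the most Ezh2 positions at Ebf1 was not the same in both cell types. In Th1 it was 44433001 to 44434000, with 54 Ezh2, 10 input and 7 control positions. In Th2 it was 44425001 to 44426000 at the window's edge, with 56 Ezh2 and 8 input positions, where Th1 had 20 and 2. Th2 held 48 Ezh2 and 3 input positions in the Th1 top bin, so both bins were high in Th2. Over the 384 kb of the window past the domain the folds were 1.11 (1.05 to 1.18) for Th1 and 1.16 (1.10 to 1.23) for Th2. Of the 80 steps of 5 kb in the window, 4 reached 2-fold in Th1 and 6 in Th2, while 28 and 26 were below input.

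Cebpa, a short gene, carried a compact domain in the middle of its window. It was called at 6 kb in Th1, from 35901001 to 35907000, and at 7 kb in Th2, from 35901001 to 35908000. The domain on both libraries together was 9 kb, from 35899001 to 35908000. It held 229 Ezh2 and 68 input positions in Th1 and 394 and 48 in Th2, with folds of 4.85 (95% interval 3.69 to 6.46) and 7.06 (5.22 to 9.73). In both cell types the bin from 35905001 was highest, with 45 Ezh2, 6 input and 1 control position in Th1 and 94, 12 and 10 in Th2. The control antibody in the 9 kb was 0.639 of input for Th1 and 1.10 for Th2. In the other 11 kb of the window the Ezh2 folds were 1.81 (1.36 to 2.42) and 1.70 (1.27 to 2.28).

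At Spi1 no region of 3 kb or more was called in either cell type or on both libraries together. In Th1 the bin from 90936001 was called, with 18 Ezh2, 4 input and 5 control positions, and the control antibody there had a fold of 2.09 over the same input (95% interval 0.449 to 10.5). The Ezh2 fold of that bin was 6.49 (2.14 to 26.3), at an adjusted p of 0.0151 in the one-sided exact test. With the control antibody as background, that bin was not called, nor was any other bin of the Spi1 window. In Th2 the same bin held 10 Ezh2 and 2 input positions and was not called. On both libraries together 2 single bins were called, this one and the bin from 90939001. The latter held 12 Ezh2 and 3 input positions in Th1 and 18 and 6 in Th2. The Th1 control antibody there had 4 positions, 2.23-fold over input (95% interval 0.377 to 15.2). The top bins of Spi1 in Th2 held 18 Ezh2 positions, where those of the other 3 genes held between 56 and 149.

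The steps of 5 kb showed the same contrast. At Spi1 the fold over 9 steps ran from 0.871 to 2.76 in Th1, with a median of 1.62, and from 0.705 to 1.99 in Th2, with a median of 1.38. At Pax5 the 38 steps ran from 0.865 to 8.48 in Th1 and from 0.891 to 10.2 in Th2. Pax5 thus had 10 steps at 2-fold or more in Th1 and 14 in Th2, where Spi1 had 1 and 0. At Spi1 all but 2 of the steps lay above input in Th1 and all but 1 in Th2. No share over all 5 kb steps of the genome is given here to set beside the step counts of Pax5, Ebf1 and Spi1.

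To read a peak in a library that had not chosen it, the 5 kb with the most Ezh2 positions in one cell type were measured in the other. At Pax5 the stretch chosen in Th1 (44723001 to 44728000) held 458 Ezh2 and 38 input positions in Th2, 10.4-fold over input (95% interval 7.43 to 14.8). The stretch chosen in Th2 (44713001 to 44718000) held 260 and 58 in Th1, or 6.46-fold (4.84 to 8.74). Cebpa gave the same stretch in both cell types (35902001 to 35907000), with a fold of 8.40 (5.80 to 12.6) when read in Th2 and 5.49 (3.89 to 7.91) when read in Th1. For Ebf1 these folds were 5.79 (3.93 to 8.80) and 3.93 (2.83 to 5.53).

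Spi1 stood apart in this measure. The stretch chosen in Th1 held 51 Ezh2 and 29 input positions in Th2, 1.51-fold over input with an interval that included 1 (0.940 to 2.47). The stretch chosen in Th2 held 45 and 40 in Th1, or 1.62-fold (1.04 to 2.55). These intervals lay wholly below those of the other 3 genes in the same cell type. The lower bound of the second stretch was just above 1.

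At Pax5, Ebf1 and Cebpa the Ezh2 profiles of both cell types followed each other. At Spi1 they did not in bins of 1 kb, and at 5 kb only 9 steps could be compared. Across the 38 steps of 5 kb at Pax5, the Ezh2 positions of Th1 and Th2 had a Pearson r of 0.982 and a Spearman rho of 0.670, where the inputs had 0.452 and 0.509. Across 80 steps at Ebf1 the Ezh2 values were 0.892 and 0.555, against 0.087 and 0.084 for the inputs. Over the 20 bins of Cebpa the Ezh2 values were 0.923 and 0.713, against -0.092 and -0.167 for the inputs. Over the 45 bins of Spi1 the Ezh2 values were 0.045 and 0.062, below the 0.307 and 0.281 of the inputs. With 9 steps of 5 kb, the Spi1 values were 0.515 and 0.466, against 0.301 and 0.131 for the inputs. Steps of 1 window share their libraries and their sequence, so these are descriptions.

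The last comparison was Th1 against Th2. The 4 domains of at least 3 kb in the windows (2 at Pax5, 1 each at Ebf1 and Cebpa) were taken from the 2902 such regions called genome-wide on both libraries together. Th1 and Th2 Ezh2 positions were set against each other in a two-sided exact binomial test around the median ratio of all 2902 regions. None of the 4 passed an adjusted p below 0.05 with at least 2-fold, where 0.724% of all regions passed as higher in Th1 and 0.586% as higher in Th2. Without the limit of 2-fold none passed either, where 5.27% passed as higher in Th1 and 7.2% as higher in Th2. With the library totals as the expected ratio, 3 of the 4 domains passed as higher in Th2, where 29.1% of all regions did and 1.9% passed as higher in Th1. On that scale Th1 over Th2 was 0.843 at the 30 kb domain of Pax5 (exact adjusted p = 0.00029), 0.766 at Ebf1 (0.00074) and 0.805 at Cebpa (0.033). It was 0.907 at the 16 kb domain of Pax5 (0.348). Relative to the median, Th2 over Th1 was 0.942 (95% interval 0.813 to 1.09) at the 16 kb domain of Pax5 and 1.01 (0.934 to 1.10) at its 30 kb domain. At Ebf1 it was 1.12 (0.973 to 1.28) and at Cebpa 1.06 (0.900 to 1.25). All 4 intervals ended well short of a 2-fold difference in either direction.

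**Figure D4:**
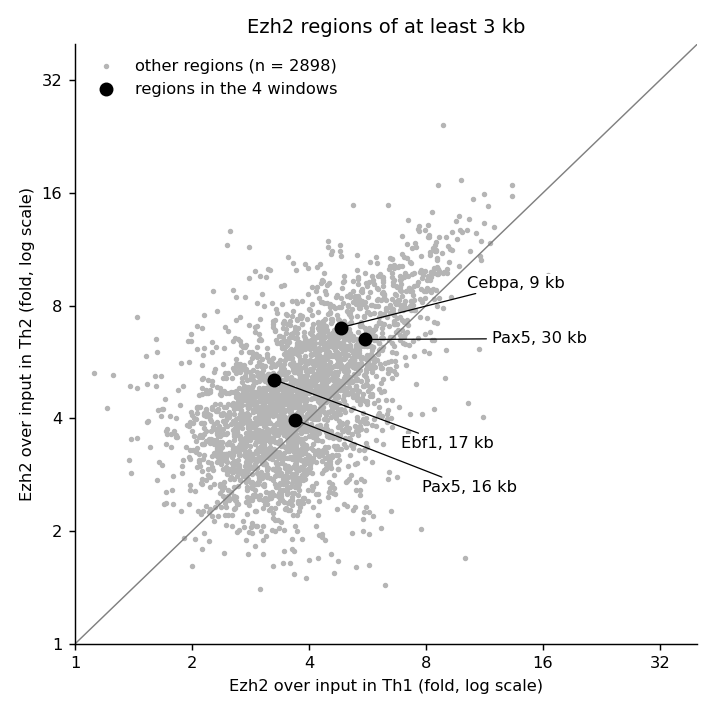
Ezh2 over input in Th1 (x axis) and Th2 (y axis), both on log scales, for the 2902 regions of at least 3 kb called on both libraries together; black points are the 4 domains at Pax5, Ebf1 and Cebpa, and the line marks equal folds. All 4 black points lie within the cloud and above the line.

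When the inputs entered as well, by a conditional exact test of the ratio of the folds, the Th2 fold was 1.24 times that of Th1 over the whole Pax5 window (95% interval 1.12 to 1.36, adjusted p = 0.00102 over 13451 windows). Of all windows of this length 2.34% were called higher in Th2 and 1.75% higher in Th1. The median ratio of Th2 to Th1 was 1.01 over these windows and 1.21 over the 2902 regions of at least 3 kb. Within the Pax5 domains the same ratio was 1.16 (0.944 to 1.43) at 30 kb and 1.07 (0.784 to 1.48) at 16 kb, with exact adjusted p of 0.455 and 0.863. The other windows did not pass. There the ratio of Th2 to Th1 was 1.09 at Ebf1 (1.01 to 1.18, exact adjusted p = 0.133), 1.23 at Cebpa (0.924 to 1.63, p = 0.722) and 0.830 at Spi1 (0.677 to 1.02, p = 0.503). Calls were made for 3.62% higher in Th1 and 4.65% higher in Th2 among windows of 400 kb, 0.0633% and 0.103% among those of 20 kb, and 0.278% and 0.438% among those of 45 kb.

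Of the domains, that of Ebf1 passed this test. Its fold was 1.56 times higher in Th2 (95% interval 1.16 to 2.11, exact adjusted p = 0.0462 over 2902 regions), a call made for 5.07% of regions as higher in Th2 and for 0.207% as higher in Th1. Over all 2902 regions the folds had a median of 3.75 for Th1 and 4.52 for Th2, with a median ratio of Th2 to Th1 of 1.21. With that median as the expected ratio, the Ebf1 domain no longer passed (exact adjusted p = 0.547). The inputs there held 145 positions in Th1 and 100 in Th2. At Cebpa the ratio was 1.45 (0.952 to 2.23, exact adjusted p = 0.342). The deposited Ezh2 files of Th1 and Th2 bear names with different run codes, so with 1 library each a general difference in pull-down, run and cell type cannot be told apart.

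Set beside all 2902 regions, the domains of Pax5 and Ebf1 stood out more by length than by fold, and that of Cebpa by neither. The 30 kb domain of Pax5 was among the longest 1.62% of regions, its 16 kb domain among 8.10% and the Ebf1 domain among 7.10%. At Cebpa 23.9% of regions were as long. At the Pax5 30 kb domain, 14.2% of regions had as high a fold in Th1 and 18.8% in Th2. At Cebpa the shares were 23.8% and 15.0%, at Ebf1 66.9% and 38.4%, and at the 16 kb domain of Pax5 52.6% and 63.0%. The 565 regions of 10 kb or more had median folds of 5.05 in Th1 and 6.47 in Th2, close to the values of the Pax5 30 kb domain. Duplicate reads moved little with the windows: reads per Ezh2 position ran from 2.04 to 2.24 in Th1 and from 1.80 to 2.03 in Th2, against 2.24 and 2.04 over all chromosomes used. Reads per input position ran from 1.19 to 1.29 in Th1 and from 1.66 to 1.75 in Th2, against 1.29 and 1.77. Duplication thus differed more between Ezh2 and input in Th1 than in Th2.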

How the data were processed

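Chromatin immunoprecipitation followed by sequencing gave 1 library for each of 6 groups (Ezh2 antibody, control antibody and input in Th1 and Th2), so no pairs or replicates existed. Per the labels' protocols, gel-selected fragments of 170 to 250 bp went through 18 PCR cycles and 36 sequencing cycles. Per the submitters' processing notes, CASAVA and mm9 were used. How reads were aligned, extended and filtered was not given in the sources used here. Each deposited value is a read count, 1 for each unstranded interval of 119 bp, without normalization by the authors as far as the values show.

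Each distinct interval was counted once, by its midpoint, per 1 kb bin, which limits the weight of PCR duplicates. Values were divided by the positions on chromosomes 1 to 19 and X. The Th2 control antibody file ended inside chromosome 17 and was used on the 8 chromosomes it held whole, with both libraries scaled over these. Folds called per bin had 0.5 added to each count. Called bins were joined into a region where no more than 1 uncalled bin lay between them. Windows of the same length were laid end to end, on a grid that included the gene's own window, and those with fewer than 10 positions were left out. The 5 kb stretches and the ratios between genes were added after seeing the data.

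For each gene the window, every region of at least 3 kb, the widest region called in each cell type and the top bin are named. Other bins of Pax5, Ebf1 and Spi1 that are named were chosen after their values were seen. The planned gene and marker lists were not used, because no annotation of mm9 was at hand. RefSeq tables of GRCm38.p6 gave promoter sequences for 3 of the 4 genes, strands and gene order only. The 4 genes and the lists were chosen with earlier results of these data known. Tests ran in Python 3.11.15 with NumPy 2.4.6, SciPy 1.17.1 and pandas 2.3.3, and were tested on simulated counts that carried Poisson error only. Alternatives were all deposited reads, the control antibody or the other cell type's input as background, scaling on the 10 kb bins with the lower Ezh2 over input, 2 kb bins, stricter thresholds, no minimum of positions and other expected ratios.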

Additional observations from a re-analysis of the deposited data

Results flagged for a closer look

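Ezh2 over input differed between the Th1 and Th2 libraries over the whole Pax5 window. The fold in Th1 was 0.809 of that in Th2, called by the conditional exact test over all windows of that length. The median of this ratio was 0.994 over those windows and 0.826 over the 2902 regions of at least 3 kb. The window was not tested against the median of the regions. Neither Pax5 domain passed by itself. Over the 39 kb of both domains in the window the fold was 5.00 (4.42 to 5.68) in Th1 and 6.06 (5.33 to 6.92) in Th2. Outside the domains it was 1.34 (1.23 to 1.45) in Th1 and 1.59 (1.47 to 1.73) in Th2, so it was higher in Th2 in both parts. At the Ebf1 domain from 44424001 the fold in Th1 was 0.641 of that in Th2, by the same exact test over all regions of at least 3 kb. It passed at an adjusted p of 0.0462 by the exact test, and with the median of all regions as the expected ratio the value was 0.776 with an adjusted p of 0.547.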

How the results depend on the processing

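No paired analysis was possible because all 6 groups were single libraries. All 8 window folds of Ezh2 over input stayed above 1 and past the threshold under every alternative that could be run. The control antibody could not serve as background for Ebf1 and Spi1 in Th2. Background scaling raises the fold of every window, 1.43 times in Th1 and 1.41 times in Th2. It could therefore not have brought any of the 8 folds below the threshold. The share of all windows that passed under each alternative is not given here. The kb called in the 4 windows, 34 in Th1 and 41 in Th2, moved with the way reads were counted. They became 75 and 112 with all deposited reads, where 3.83% and 5.83% of bins were called genome-wide. With 2 kb bins, counted by their length within the windows, 65 kb were called in Th2, where 1.37% of bins were called genome-wide (1.14% in Th1). With a fold of at least 4 and an adjusted p below 0.001, 20 kb were called in Th1, where the share genome-wide was 0.465%. Under the stricter rule and with the control antibody as background, no Spi1 bin was called in Th1, where 1 was called before. With 2 kb bins the length called at Spi1 was 2 kb in each cell type, which is 1 such bin. With all deposited reads it was 3 kb in each, so Th2 went from 0 to 2 and 3 kb. With all deposited reads the control antibody passed as lower than input also at Cebpa in Th1 (0.680) and at Pax5 in Th2 (0.910), beside Pax5 and Ebf1 in Th1, and the ratio of the Th1 to the Th2 fold passed at the Ebf1 window (0.909) and the Spi1 window (1.39). By that ratio 1 of the 4 domains passed, against 2 with all deposited reads, Cebpa being added at 0.579, and 0 with the median as the expected ratio. The shares of all windows and regions that passed by that ratio with all deposited reads are not given here. PCR duplicates are counted as separate in those reads, so their exact tests overstate the precision; the cause of these changes was not tested. At this depth a 1 kb bin of input held about 10 positions or fewer, which limits calls to strong enrichment.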
